A study of Mus musculus with 8 samples.

Results

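Old long interspersed elements (LINEs) in mouse sperm small RNA were followed, copy by copy and strand by strand, in sperm of the ethanol and the control treatment. They were chosen by name: every sense or antisense transposon row whose repeat name began with L1M and a letter from A to E or a digit, or with L1P, HAL1, L2 or L3. This gave 56687 rows of 783825 transposon rows and 1078961 rows in all. The rows covered 52920 annotated copies under 96 names, and 3767 copies were listed on both strands. Another 209492 rows carried other L1 names, among them those of the younger rodent L1 elements, and were used only as a comparison.

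LINEs copy themselves through an RNA intermediate. The L1M names belong to L1 subfamilies that were active early in mammalian evolution, HAL1 is an L1 derivative that lacks the reverse transcriptase, and L2 and L3 are older LINE lineages that no longer move in mice. Their copies are mostly truncated and diverged, so a small RNA can often be assigned to a single copy. In male germ cells, PIWI proteins carry piRNAs, small RNAs cut from long cluster transcripts. A piRNA antisense to a transposon can guide cleavage of that transposon's RNA and silencing of its locus, and clusters contain many old transposon fragments.

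Small RNA libraries were made from total RNA of sperm with Trizol and Qiaseq reagents, 4 from the ethanol and 4 from the control treatment of a study of mice after alcohol cessation. The labels give no strain, age, dose or length of treatment, and they do not say whether the samples of a group are separate animals, so a p-value here speaks only to the spread among the 8 samples sequenced, which may be technical. The ethanol libraries held 6849448, 3481865, 6975180 and 5948251 deposited counts, and the control libraries 4529439, 4365887, 4503011 and 4921827. In bulk RNA, fewer cells of a type and less RNA per cell cannot be told apart.

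All 10 sperm marker transcripts were measured and none passed the test between the groups by edgeR. At an unadjusted p under 0.05 there were 2, a level that 33.0% of all features reached. DESeq2 called 2, where 6.18% of all features fell by that test. All 10 edgeR estimates were below 0, with a median log2 fold change of -0.52, against -0.01 over all features. The summed level of the sperm markers was 199.9 to 557 CPM in the ethanol libraries and 512 to 675 CPM in the control libraries. CPM is the count scaled to a common library size with TMM factors. Of 10 epididymal epithelium markers 7 were tested and 6 rose by edgeR, where 11.9% of all features tested rose. DESeq2 called 5 of the list, with 17.3% of all features rising by that test, and limma-voom called 0. Their sum was 949.7 to 12265 CPM in ethanol sperm and 411 to 872 CPM in control sperm. It was mostly Crisp1, which averaged 3478 ± 4159 CPM in ethanol sperm and 488 ± 122 CPM in control sperm. The untested Lcn5, Lcn8 and Cst11 had means of 0.359 to 1.39 CPM in ethanol sperm and 0.0624 to 0.502 CPM in control sperm. Of 8 blood and immune markers 6 were tested, and 1 rose and 2 fell by edgeR, where 11.9% of all features rose and 1.75% fell. DESeq2 called 4 of these markers, where 17.3% of all features rose and 6.18% fell, and limma-voom called 0 of them. Their sum of 183 to 2704 CPM in ethanol sperm and 93.1 to 129.9 CPM in control sperm was mostly Cd52, which is also abundant in epididymal epithelium and averaged 883 ± 1205 CPM in ethanol sperm and 69.3 ± 17.1 CPM in control sperm. The 2 that fell were the globins Hba-a1 and Hba-a2, and the median log2 fold change of the tested markers was -1.66. Ethanol library 2 stood apart, with the lowest sperm sum, 199.9 CPM, and the highest epididymal sum, 12265 CPM. No marker was at 0 in every library of a group, and the part of these cells in the results that follow was not tested.

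Few copies carried most of the counts. Of the 56687 rows 1738 were at 0 in all libraries and 47525 had 1 or 2 counts over the 8 libraries together, which left the single copies of most rows beyond any comparison at this depth. Of 402977 counts on these rows the most counted row held 9.43%, the top 10 held 36.4% and the top 100 held 75.3%. Going on to the top 1000 rows added little, to 79.5%. Within a name the counts were less concentrated for most names and very concentrated for a few. The largest copy held a median of 8.91% of the counts of the 60 sense names with enough counts to test (range 1.68% to 95.8%), and more than 50% in 10 of them. Among the 68 tested antisense names its median share was 8.55% (range 1.02% to 95.8%), with more than 50% in 13 names and more than 90% in 4.

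**Figure D1:**
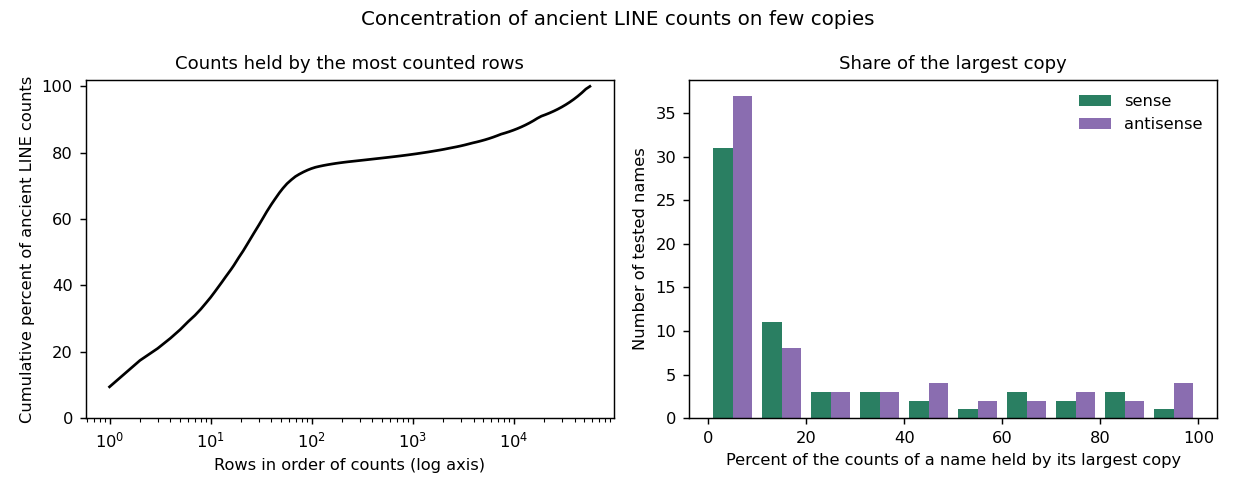
Left, cumulative percent of the 402977 ancient LINE counts against rows in order of their counts (log axis), where the curve reaches 75.3% at 100 rows and then flattens. Right, number of tested names by the percent of their counts held by the largest copy, for sense and antisense, with most names in the lowest bin and 4 antisense names above 90%.

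Most abundant copies gave RNA from one strand. Of 115 copies with at least 100 counts 66 were mainly antisense and 49 mainly sense, and 98 had at least 99% of their counts on one strand. The median share of the dominant strand was 99.9%. Only 5 copies were under 90%, namely L1M2_copy7205, L1MB7_copy5928, L1MC_copy1541, L1ME3A_copy920 with 78.9% and L3b_copy981 with 56.5%, and these were named after their values were seen. Summed over all copies, sense RNA made up 33.4 ± 1.06% of ancient LINE counts in ethanol sperm and 34.3 ± 0.327% in control sperm (SD, n = 4 each). Other L1 names had a sense share of 62.6 ± 8.89% in ethanol sperm and 65.9 ± 2.31% in control sperm, and the ancient LINE share was below it in all 8 libraries. All other transposons had a sense share of 49.3 ± 6.71% in ethanol sperm and 47.8 ± 2.34% in control sperm.

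The total level of ancient LINE RNA overlapped between the treatments. Sense rows took 0.378%, 0.179%, 0.434% and 0.221% of the deposited counts in ethanol libraries 1 to 4, against 0.379%, 0.260%, 0.311% and 0.346% in control libraries 1 to 4. Antisense rows took 0.793%, 0.347%, 0.894% and 0.420% in the ethanol libraries, against 0.735%, 0.498%, 0.583% and 0.669% in the control libraries. On both strands ethanol libraries 1 and 3 were high and 2 and 4 low, and the control libraries lay between the extremes. The lowest of all on both strands was ethanol library 2, which also had the lowest sperm marker sum and the highest epididymal marker sum. Ethanol library 1, high on both strands, had the next lowest sperm sum, 353 CPM, and the next highest epididymal sum, 2918 CPM. The part of these cells in the LINE level of the libraries was not tested. Wilson 95% intervals of these percentages reached at most 0.00786 percentage points to either side, so the spread between libraries was far wider than counting error.

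For the piRNA cluster counts, only the transcript with the most counts in each cluster was used. As a percent of all deposited counts they moved the same way. They were 17.1%, 8.0%, 23.1% and 9.51% in the ethanol libraries and 15.6%, 9.75%, 13.4% and 16.7% in the control libraries. Per 100 piRNA cluster counts, the 100 most counted ancient LINE rows had 5.11, 4.71, 4.89 and 4.69 counts in ethanol libraries 1 to 4 and 5.01, 5.03, 4.71 and 4.81 in control libraries 1 to 4. The highest library was thus 1.09 times the lowest on this scale, against 3.0 times as a percent of deposited counts (0.377% in ethanol library 2 and 1.13% in ethanol library 3). The remaining 56587 rows did not keep such a ratio. They had 1.72, 1.86, 0.857 and 2.05 counts per 100 piRNA cluster counts in the ethanol libraries and 2.11, 2.75, 1.95 and 1.28 in the control libraries, 3.21 times between the highest and the lowest. As a percent of deposited counts these rows ran from 0.149% to 0.295% in ethanol sperm and from 0.213% to 0.330% in control sperm, and the groups overlapped. The table gives no positions, so whether the abundant copies lie inside the clusters was not tested.

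**Figure D2:**
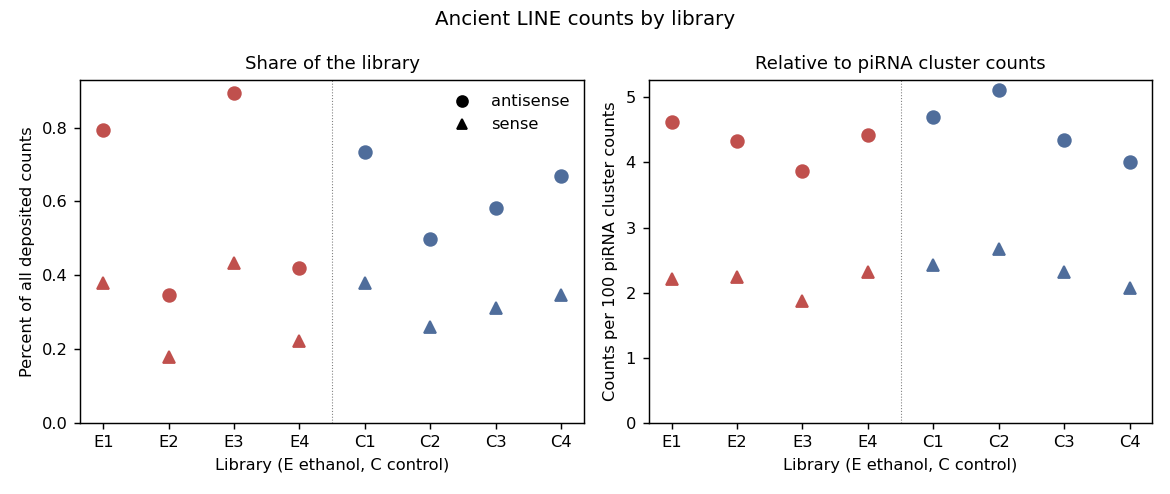
Ancient LINE counts in each ethanol library (E1 to E4) and control library (C1 to C4), antisense as circles and sense as triangles. Left, percent of all deposited counts, high in E1 and E3 and low in E2 and E4. Right, counts per 100 piRNA cluster counts, where the libraries lie closer together.

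By lineage, the numbered L1M names and L2 gave most of the RNA. On the antisense strand the 23 numbered names, L1M1 to L1M8 with their variants, held 26.0% of all ancient LINE counts and the 4 L2 names 14.9%. On the sense strand the 4 L2 names held 14.1% and the 7 L1MB names 5.74%. L1MC held 10.1% on the antisense and 1.64% on the sense strand, so the strands differed between lineages in these sums. Single copies weighed heavily in them. L1MC_copy3817 held 12267 of the 40525 antisense counts of L1MC, and L1MB5_copy3367 held 9703 of the 23123 sense counts of L1MB. The 5 HAL1 names held 0.222% antisense and 0.161% sense, and the 2 L1P names had 38 antisense and 16 sense counts in all, too few to test.

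L1M2 antisense, the most abundant name, had 2365, 699.9, 3730.3 and 1166 CPM in ethanol libraries 1 to 4 and 2424, 1472, 1751 and 2633 CPM in control libraries 1 to 4. The ethanol libraries lay on both sides of the controls. Its 2180 copies gave a mean of 1990.2 ± 1356 CPM in ethanol sperm and 2069.8 ± 548 CPM in control sperm (SD, n = 4 each, as in the values that follow). A pair of copies made up most of it. L1M2_copy15762 antisense, the most counted row of all, averaged 972 ± 663 CPM in ethanol sperm and 1023 ± 249.8 CPM in control sperm, and L1M2_copy15765 antisense averaged 845 ± 602 CPM in ethanol sperm and 832 ± 273 CPM in control sperm.

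L2c was abundant on both strands, from different copies. L2c antisense averaged 891 ± 586 CPM in ethanol sperm and 937 ± 314 CPM in control sperm, with L2c_copy3219 as the largest copy at 42.2% of its counts. L2c sense averaged 742 ± 513 CPM in ethanol sperm and 789 ± 209.8 CPM in control sperm, with L2c_copy5919 at 36.3%. That sense copy averaged 271 ± 200.2 CPM in ethanol sperm and 284 ± 97.0 CPM in control sperm, and L2c_copy9510 sense 188 ± 132 CPM in ethanol sperm and 212 ± 44.1 CPM in control sperm. L1MC antisense averaged 837 ± 564 CPM in ethanol sperm and 884 ± 231 CPM in control sperm, with L1MC_copy3817 antisense at 324 ± 232 CPM in ethanol sperm and 315 ± 74.7 CPM in control sperm. For each of these names and copies the groups overlapped.

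The other names among the 8 most abundant of their strand overlapped between the groups as well. On the antisense strand these were L1M4, L2, L2b, L1M4a1 and L1MD, with means of 202 to 326 CPM in ethanol sperm and 206 to 359 CPM in control sperm. L1M4a1 antisense came almost wholly from L1M4a1_copy292, with 90.1% of its counts. On the sense strand L1MB5 averaged 473 ± 334 CPM in ethanol sperm and 517 ± 156 CPM in control sperm, of which L1MB5_copy3367 made up 51.7%. L2a sense averaged 395 ± 234 CPM in ethanol sperm and 452 ± 118 CPM in control sperm. The last sense names, L2b, L1MA6, L1M5, L1MEg and L1M2, had means of 87.1 to 212 CPM in ethanol sperm and 126 to 231 CPM in control sperm, with L1MA6 resting on L1MA6_copy4539 for 88.6% of its counts.

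**Figure D3:**
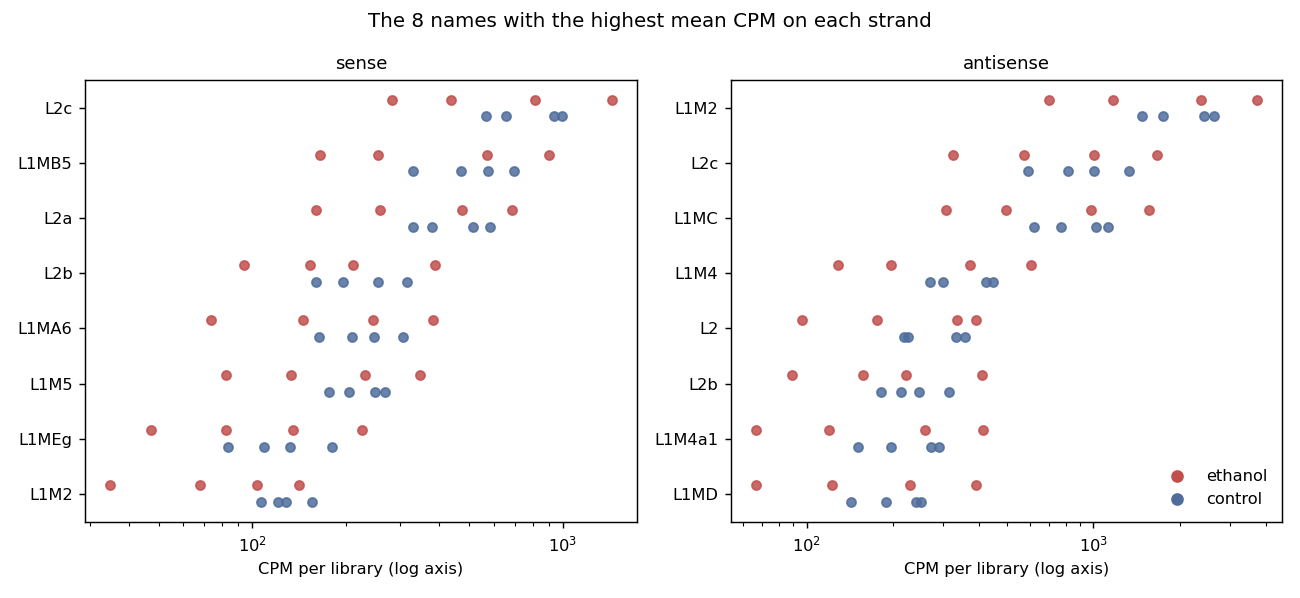
CPM per library (log axis) of the 8 names with the highest mean CPM on the sense strand (left) and the antisense strand (right), ethanol above control for each name. The ethanol points spread more widely than the control points and the groups overlap in every name shown.

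Of 128 ancient LINE names tested 1 fell and 0 rose in ethanol sperm by edgeR's quasi-likelihood test with Benjamini-Hochberg adjustment, at an adjusted p under 0.05. Over all 13515 features 1.75% fell and 11.9% rose. Another 12 names had an unadjusted p under 0.05, which made 13 in all, each with a lower value in ethanol sperm, while 8.68% of all features were lower at that level. DESeq2's Wald test called 9 names, all lower, where 6.18% of all features fell by that test. By limma-voom 1 name fell, and 0.0518% of all features. The one name that fell was L1ME3A on the sense strand. It had 7.64, 1.89, 7.54 and 6.40 CPM in ethanol libraries 1 to 4, against 66.0, 47.8, 79.6 and 115 CPM in control libraries 1 to 4, and the groups did not overlap. Its log2 fold change was -3.70 ± 0.50 (SE), with an adjusted p of 0.0133 by edgeR. Without ethanol replicate 1, 5 names fell, as L1MDb, L1ME3D, HAL1M8 and HAL1ME antisense joined it, and without ethanol replicate 3 also 5, as L1MA5, L1MA10 and L1MC4a sense and L1ME3A antisense did, names given here after their values were seen. Of all features 2.91% fell without ethanol replicate 1 and 5.65% without ethanol replicate 3. When libraries were scaled to their piRNA cluster totals, an alternative added after seeing the data, L1ME3A no longer passed (log2 fold change -3.45, adjusted p = 0.197 by edgeR).

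Most other names had small negative estimates. Of the 128 names 126 had a log2 fold change below 0, with a median of -0.47 over the names and -0.01 over all 13515 features. The median of the names was -0.31 without ethanol replicate 2 and -0.73 without ethanol replicate 3. Scaling to library totals moved the median of all features to 0.24 and that of the names to -0.26. The median was -0.48 for the 60 sense names and -0.45 for the 68 antisense names, beside -0.50 for 948 other transposon names, of which 10 fell and 4 rose, and -0.72 for 81 other L1 names, of which none was called, though 5 had an unadjusted p under 0.05. All 4 ethanol libraries were below all 4 control libraries for 12 of the 60 sense and 4 of the 68 antisense names. Over all features tested that held for 6.91%.

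The names next to the threshold had lower estimates in ethanol sperm and did not pass by edgeR. L1ME3D antisense had 2.20, 0.842, 0.754 and 0.346 CPM in the ethanol libraries and 3.93, 3.88, 3.25 and 0.834 CPM in the control libraries (log2 fold change -1.45 ± 0.56, adjusted p = 0.0872 by edgeR). L1MDb antisense had an estimate of -1.09 ± 0.41 (adjusted p = 0.0809 by edgeR), from 1.52 ± 0.714 CPM in ethanol sperm and 3.35 ± 0.511 CPM in control sperm. Both were among the 4 tested names with the lowest mean CPM, and only L1MDb kept the groups apart. L1MDb antisense had 16, 3, 9 and 8 counts in ethanol libraries 1 to 4 and 15, 11, 12 and 13 in control libraries 1 to 4. It met the count filter only with the control libraries, where it was higher, so the filter and the test were not independent.

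On higher levels, L3 antisense averaged 17.6 ± 6.01 CPM in ethanol sperm and 31.4 ± 6.08 CPM in control sperm, with the groups just apart at 24.4 CPM in the highest ethanol and 24.5 CPM in the lowest control library (log2 fold change -0.84 ± 0.37, adjusted p = 0.127 by edgeR). On the sense strand the smallest p after L1ME3A belonged to L1ME3, L1MC4a and L1MA5, with log2 fold changes of -1.05, -0.99 and -0.93 and adjusted p-values by edgeR of 0.102, 0.107 and 0.112. L1MA5 sense averaged 12.1 ± 5.14 CPM in ethanol sperm and 23.1 ± 5.66 CPM in control sperm, and its largest copy held only 3.17% of its counts. L1MA10 antisense and L3b antisense were the only names with estimates above 0, at 0.05 ± 0.51 and 0.01 ± 0.46, and their sign turned under other settings.

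A single copy made up part of the difference in some of these names. L1MB4 antisense averaged 13.0 ± 4.71 CPM in ethanol sperm and 26.9 ± 14.2 CPM in control sperm (log2 fold change -1.05 ± 0.44, adjusted p = 0.111 by edgeR). Its largest copy, L1MB4_copy495 antisense, was listed with 0, 1, 0 and 0 counts in ethanol libraries 1 to 4 and 45, 34, 4 and 1 counts in control libraries 1 to 4. The counts of the copy came mainly from control libraries 1 and 2, it did not pass the count filter, and it was described after its values were seen. Without that copy the estimate for L1MB4 antisense was -0.72 ± 0.40. L1MC4a sense had a like copy, L1MC4a_copy2588, with 0.893% of the name's counts in ethanol sperm and 17.9% in control sperm, and the estimate without it was -0.71 ± 0.39. Both names thus kept most of their lower estimate without the copy.

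Taking the largest copy out of every name left 123 names that could be tested. None of them passed by edgeR, with 8 at an unadjusted p under 0.05, while limma-voom called 0. DESeq2 called 7, all lower, where 6.11% of all features fell by that test. Of all 13558 features in the edgeR fit 1.72% fell, 11.7% rose and 8.55% were lower at an unadjusted p under 0.05. The median log2 fold change of the 123 names was -0.55. L1ME3A sense without its largest copy had an estimate of -0.44 ± 0.41 (adjusted p = 0.461 by edgeR).

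That copy was L1ME3A_copy920, which held 7.97% of the L1ME3A sense counts in ethanol sperm and 90.3% in control sperm. Its sense RNA gave 4, 1, 5 and 1 counts in ethanol libraries 1 to 4, against 220, 163, 287 and 387 in control libraries 1 to 4. In CPM this was 0.587, 0.210, 0.943 and 0.173 in ethanol sperm and 57.6, 42.2, 71.6 and 108 in control sperm. The 4 ethanol libraries were all near 0 and the 4 control libraries all high, so that in a fit with every copy as a feature of its own it fell by 7.10 ± 0.60 on the log2 scale (adjusted p = 6.36e-05 by edgeR). With so few ethanol counts the size of this estimate depends on the prior count of the fit. The copy met the count filter only through the control libraries, where it was high, so the filter and the test were not independent.

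The same copy was also read on its antisense strand, and there the RNA was present in all libraries. L1ME3A_copy920 antisense had 582, 133, 725 and 207 counts in ethanol libraries 1 to 4 and 651, 430, 515 and 762 in control libraries 1 to 4. In CPM it averaged 71.5 ± 50.4 in ethanol sperm and 156 ± 45.1 in control sperm, with overlapping groups, and did not pass (log2 fold change -1.13 ± 0.52, adjusted p = 0.147 by edgeR). It passed without ethanol replicate 3 (adjusted p = 0.0167). Per 100 piRNA cluster counts it had 0.0495, 0.0477, 0.0450 and 0.0366 counts in the ethanol libraries and 0.0920, 0.101, 0.0852 and 0.0928 in the control libraries, where the groups did not overlap. The antisense row was followed because of its sense partner, after the values were seen.

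Set against both strands, the sense share of L1ME3A_copy920 was 0.649 ± 0.116% in ethanol sperm and 30.6 ± 4.99% in control sperm (SD, n = 4 each). In ethanol libraries 1 to 4 it was 0.683%, 0.746%, 0.685% and 0.481%, with Wilson 95% intervals whose upper ends lay between 1.59% and 4.11%. In control libraries 1 to 4 it was 25.3%, 27.5%, 35.8% and 33.7%, with lower interval ends of 22.5% to 32.5%. This ratio needs no scaling between libraries. Intervals cover counting error only.

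L2b_copy13425 was the one copy that rose. Its sense RNA gave 24, 38, 26 and 63 counts in ethanol libraries 1 to 4, against 0, 1, 0 and 3 in control libraries 1 to 4, and its antisense strand was not listed. It averaged 6.83 ± 3.29 CPM in ethanol sperm and 0.273 ± 0.394 CPM in control sperm, with no overlap. Its log2 fold change was 4.56 ± 0.70 (adjusted p = 0.0280 by edgeR). This copy met the count filter only through the ethanol libraries, where it was high, so here too the filter and the test were not independent. The call was lost without control replicate 1, 2 or 3 (adjusted p 0.0600, 0.0715 and 0.0700) and with scaling to piRNA cluster totals (adjusted p = 0.203). It was a small part of L2b sense, whose groups overlapped at 212 ± 127 CPM in ethanol sperm and 231 ± 67.7 CPM in control sperm.

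**Figure D4:**
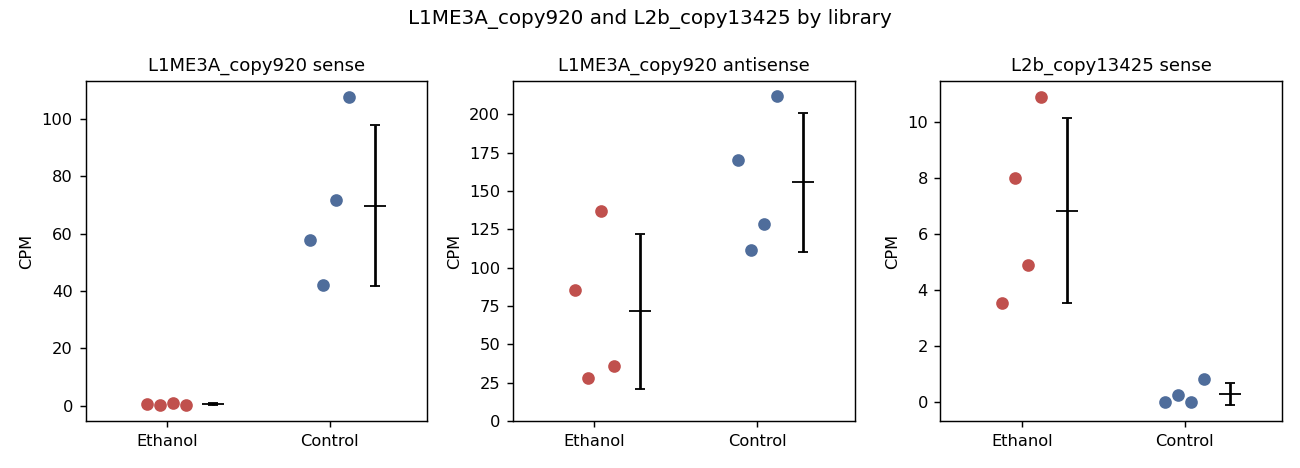
CPM in each ethanol and control library (points) with mean and SD over 4 libraries (black), for L1ME3A_copy920 sense and antisense and L2b_copy13425 sense. Sense L1ME3A_copy920 is below 1 CPM in all ethanol libraries and above 42 CPM in all control libraries, its antisense RNA overlaps, and L2b_copy13425 is higher in all ethanol libraries.

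These were the only copies past the threshold among 122 copies with enough counts to be tested, which together held 76.0% of the ancient LINE counts. Of all 13509 features in that fit 1.73% fell and 11.6% rose. Their groups were also the only ones that did not overlap, with 1 copy lower and 1 higher, against 6.80% and 14.4% of all features. Of the 122 copies 88 had an estimate below 0 and 34 above it, with a median of -0.09, which was 0.08 with scaling to library totals, where the median of all features was 0.25. That median was 0.12 without ethanol replicate 2, 0.06 without ethanol replicate 4 and -0.72 without ethanol replicate 3. Without ethanol replicate 3, 6 copies fell and 1 rose, where 5.70% of all features fell and 18.3% rose.

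**Figure D5:**
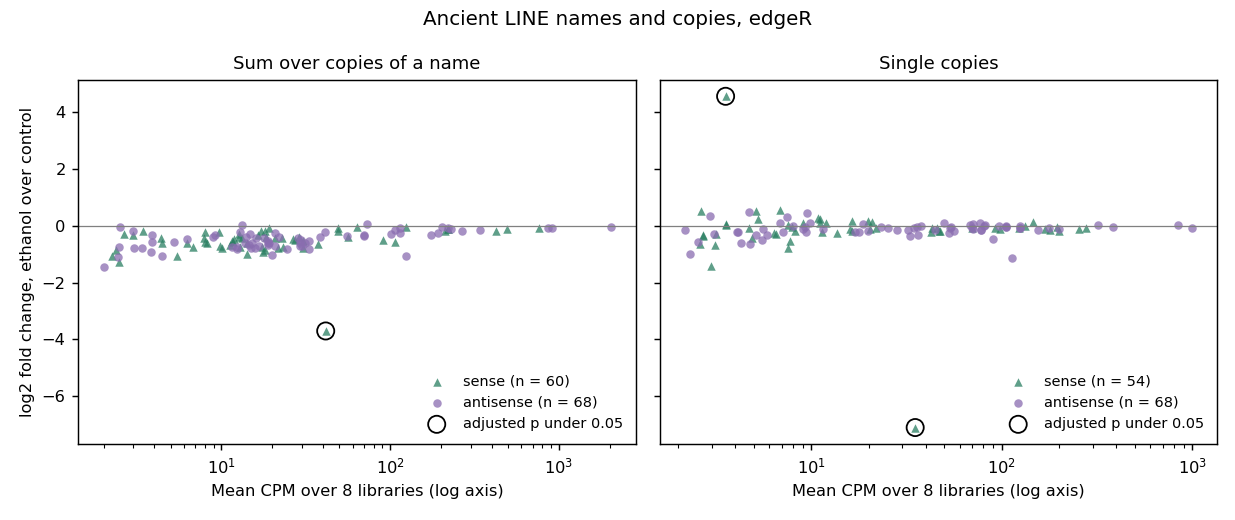
Log2 fold change of ethanol over control against mean CPM (log axis) for the 128 names (left) and the 122 single copies (right), sense as triangles and antisense as circles, with rings at an adjusted p under 0.05. Most names lie a little below 0, the copies scatter around it, and the ringed points are L1ME3A sense on the left and the sense rows of L1ME3A_copy920 and L2b_copy13425 on the right.

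Other rows with large losses were counted beside L1ME3A_copy920. By a rule chosen after the values were seen, 3539 rows of all types had more than 20 counts in each control library, 81 of them ancient LINE rows, and 4 of the 3539 had an ethanol sum under 1/20 of the control sum. Besides L1ME3A_copy920 sense these were an intron of Gpc5, a copy of the SINE ID_B1 and a tRNA-Ala copy. More than 20 counts in each ethanol library were held by 4262 rows, 71 of them ancient LINE rows. The reverse pattern was shown by 29 of the 4262, of which 22 were exon rows. L2b_copy13425 sense was the only ancient LINE row among the 29.

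None of the tested genes that silence LINEs passed the edgeR test. Of 38 listed genes of the piRNA pathway and of LINE silencing, 35 were in the table and 16 had enough exon counts. None was called by edgeR, with 2 at an unadjusted p under 0.05, a level that 33.0% of all features reached. DESeq2 called 1, where 17.3% of all features rose and 6.18% fell by that test, and limma-voom called 0. The median log2 fold change was 0.21. Pphln1, a subunit of the HUSH complex that silences L1 chromatin, averaged 24.3 ± 15 CPM in ethanol sperm and 22.8 ± 9.91 CPM in control sperm. Trim28, the corepressor that KRAB zinc finger proteins bring to transposons, averaged 25.2 ± 16.4 CPM in ethanol sperm and 11.8 ± 3.04 CPM in control sperm (log2 fold change 1.09 ± 0.43, adjusted p = 0.0979 by edgeR). Summed over the list, the level was 109.6 to 197 CPM in ethanol sperm and 94.4 to 151 CPM in control sperm, so the groups overlapped. Samhd1, a dNTP hydrolase that restricts retroelements, was the gene that DESeq2 called, and it also rose by edgeR without ethanol replicate 3. It averaged 6.59 ± 6.59 CPM in ethanol sperm and 1.76 ± 1.02 CPM in control sperm (log2 fold change 1.87 ± 0.68, adjusted p = 0.0742 by edgeR). Ethanol library 2, the one with the extreme epididymal markers, held 16.2 CPM, and the mean of the other 3 ethanol libraries was 3.38 ± 1.85 CPM. Without ethanol replicate 4 the piRNA factor Tdrkh was the 1 gene that rose. The share of all features that rose without ethanol replicate 3 or 4 is not given here for the fit by name. Samhd1 and Tdrkh were named after their values were seen.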

How the data were processed

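Trizol extraction and Qiaseq reagents are given per the labels' protocols. The authors deposited 1 table of raw counts, in whole numbers, with a row per annotated feature and a column per library. The aligner, the genome build, the placing of reads with several alignments, and whether reads or molecules were counted are not given in the sources used here. Near-identical copies can share reads, so single-copy values are uncertain to that extent, and a name sum may hold a read more than once. L1M4_copy8210, L1M4_copy8223 and L1M4_copy8805 antisense had the same count in each of the 8 libraries, 92 in total for each. Of the 100 most counted rows, 0 had the same 8 counts as another row. Whether reads were counted on several copies was not tested. Copies have no coordinates in the table, so no sequences are shown.

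Groups came from the sample titles. Transposon rows were summed per name and strand within 45090 features, or kept as single copies, or summed without the largest copy. Of each piRNA cluster only the transcript with the most counts was kept, also in the piRNA cluster totals. Deposited counts sum all rows. Each table was tested whole in edgeR 4.0.16 (R 4.3.3): TMM scaling, filterByExpr with a minimum count of 10, robust quasi-likelihood fit, Benjamini-Hochberg adjustment, threshold 0.05. The SE is the absolute log2 fold change divided by the square root of F. Scripts were tested on simulated data. Alternatives used DESeq2 1.42.0, limma-voom (limma 3.58.1), other scalings and filters, a replicate block and each library left out. Scaling to piRNA cluster totals was added after seeing the data. Levels and plots were computed in Python 3.11.15 (pandas 2.3.3, numpy 2.4.6, scipy 1.17.1, matplotlib 3.10.9). Pairs of libraries within a group differed by a chi-square of 13.4 to 164 per degree of freedom, more than counting noise alone, and each was counted as 1 replicate; this does not show that they are separate animals.

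Names were described one by one if past the threshold, among the 8 highest mean CPM of their strand, or among the 4 smallest p in each direction per strand. Copies were described if past the threshold or among the 8 most counted, with the largest copy of each called name, and of the silencing genes those past the threshold or otherwise the 2 highest in mean CPM. The members and lists were chosen with earlier results of these data known.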

Additional observations from a re-analysis of the deposited data

How the results depend on the processing

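The fall of L1ME3A_copy920 sense passed in every fit run, with log2 fold changes of -7.68 to -6.87 when 1 library was left out. Names past the threshold numbered 1, against 9 with DESeq2's Wald test, 2 with no count filter, 6 with the replicate block, 0 with piRNA cluster totals, 0 with the largest copies left out and 1 to 5 with a library left out. Copies numbered 2, against 6 with no filter, 1 with a minimum count of 30, where L2b_copy13425 was not tested, 4 with the replicate block, 1 with piRNA cluster totals and 1 to 7 with a library left out. Names without their largest copy numbered 0, against 7 with DESeq2's Wald test, 2 with the block and 0 to 4 with a library left out. Silencing genes numbered 0, against 1 with the block and 0 to 1 with a library left out. The share of all features called is not given here for no filter, a minimum count of 30, the block or piRNA cluster totals. Counts under those settings therefore cannot be read as particular to these rows or genes. L1MA10 antisense turned to -0.00417 with DESeq2 size factors, -0.00415 with its Wald test, -0.21 with limma-voom, -0.23 with the block and -0.66 without its largest copy, and ranged from -0.61 to 0.26 with a library left out. L3b antisense turned to -0.030, -0.0301, -0.14, -0.13 and -0.38 in the same settings and ranged from -0.70 to 0.18. The cause of these changes was not tested, except that a sum without its largest copy no longer holds that copy.

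The deviations of libraries with the same replicate number had correlations of 0.34, 0.21, -0.13 and -0.02. Pairs with unlike numbers ran from -0.40 to 0.38, so these few values cannot decide whether libraries with the same number were paired. Rows with 1 or 2 counts in all cannot show a difference at this depth, and most copies were of that kind.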
